A study of Rattus norvegicus with 26 samples.

Results

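Troponin is the calcium switch of the thin filament of striated muscle, and the 6 genes described here encode its slow and fast skeletal forms. They are the rows of the gene count table with the symbols Tnnt1, Tnni1 and Tnnc1 (slow) and Tnnt3, Tnni2 and Tnnc2 (fast), 6 of 34034 genes, and all 6 were among the 10064 genes that passed the filter on low counts. Transcripts were counted in the soleus, the slow calf muscle that holds posture, of 26 aged female rats of generation 44 of selective breeding for high or low running capacity (HCR and LCR). The groups were HCR running (n = 5) and LCR running (n = 5), kept in pairs with a wheel for over 5 months, and HCR sedentary (n = 8) and LCR sedentary (n = 8), which had no wheel. All animals had standard chow and water freely. The labels give no cage, litter or birth date, so cage mates were counted as separate animals, and a cohort difference cannot be told apart from running. Line and relatedness within a line cannot be told apart either.

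A troponin complex holds 1 subunit of each kind. Troponin C binds calcium, troponin I holds back the interaction of actin and myosin when calcium is low, and troponin T ties the complex to tropomyosin. Slow fibres use the products of Tnnt1, Tnni1 and Tnnc1, which is also the troponin C of the heart, and fast fibres use those of Tnnt3, Tnni2 and Tnnc2. Soleus is built mostly of slow fibres, with a smaller share of fast oxidative ones.

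Libraries held 1.10 to 2.52 megacounts, with means of 1.49 ± 0.321 megacounts in HCR running, 1.70 ± 0.280 in LCR running, 1.85 ± 0.351 in HCR sedentary and 1.80 ± 0.321 in LCR sedentary (SD). The libraries HCR running 5 and LCR running 5 carry titles that begin with the other line's name. These titles end in the sample codes He5 and Le5, which match the line of the genotype label, as do the descriptions of the samples. Both libraries were kept under the line of their genotype label. The troponin calls, the slow to fast ratios between the running lines and the correlations of the fast troponins are also given without them. The results for other genes, the ratios between fast forms and the likeness ranks were not repeated without them. The tissue label was checked on the myosin heavy chains: Myh7, the slow form, averaged 11138 ± 786, 10727 ± 593, 10245 ± 1544 and 11249 ± 866 CPM (counts per megacount of the library) in HCR running, LCR running, HCR sedentary and LCR sedentary. Myh4, the form of the fastest fibres, had group means from 44.9 to 87.3 CPM.

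In the order of their annotation (RefSeq, GRCr8, used for names and neighbours only), Tnnt1 follows Tnni3, the cardiac troponin I gene, and Tnni2 and Tnnt3 lie near each other on chromosome 1. Tnni1 lies on chromosome 13, Tnnc1 on chromosome 16 and Tnnc2 on chromosome 3. The annotated span of Tnni2 in that build also holds Ctsd, a lysosomal protease gene, which had 288 to 389 CPM over the 26 libraries. Whether the annotation used for counting overlaps in the same way is not stated in the labels or headers. Promoter windows of 250 bases before the annotated start were found for 4 of the 6 genes (RefSeq, GRCr8), and are shown because slow and fast genes took different courses in these animals. Capitals mark matches of CANNTG (the E-box, bound by MyoD family factors) and of TGGAAA (the core bound by NFAT factors), searched on both strands.
Tnnt1, chr1:78348785-78349034, plus strand: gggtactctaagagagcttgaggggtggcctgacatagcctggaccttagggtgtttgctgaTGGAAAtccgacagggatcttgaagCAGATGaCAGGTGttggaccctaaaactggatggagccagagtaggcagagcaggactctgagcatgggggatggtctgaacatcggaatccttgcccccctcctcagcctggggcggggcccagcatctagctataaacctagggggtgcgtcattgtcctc
Tnni1, chr13:49781279-49781528, plus strand: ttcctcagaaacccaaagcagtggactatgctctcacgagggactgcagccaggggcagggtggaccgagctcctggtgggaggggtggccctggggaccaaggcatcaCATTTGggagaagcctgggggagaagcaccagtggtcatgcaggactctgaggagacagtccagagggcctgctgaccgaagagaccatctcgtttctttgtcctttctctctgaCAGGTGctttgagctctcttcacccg
Tnni2, chr1:207024240-207024489, plus strand: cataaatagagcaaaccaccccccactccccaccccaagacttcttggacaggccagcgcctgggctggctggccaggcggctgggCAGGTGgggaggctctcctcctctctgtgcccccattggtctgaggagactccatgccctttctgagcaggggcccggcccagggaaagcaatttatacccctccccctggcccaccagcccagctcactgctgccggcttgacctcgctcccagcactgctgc
Tnnc2, chr3:173935340-173935589, minus strand: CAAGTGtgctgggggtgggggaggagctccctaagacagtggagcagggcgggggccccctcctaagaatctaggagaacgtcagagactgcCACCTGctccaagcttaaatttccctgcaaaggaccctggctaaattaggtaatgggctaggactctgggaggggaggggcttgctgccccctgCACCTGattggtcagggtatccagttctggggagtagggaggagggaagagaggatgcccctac

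The E-box letters matched 2 times in Tnnt1, 2 times in Tnni1, 1 time in Tnni2 and 3 times in Tnnc2, and 65.5% of the 33469 promoter windows of this length hold them. TGGAAA matched 1 time, in Tnnt1, and 19.7% of all windows hold it. CATTCC (the MCAT element bound by TEAD factors, in 12.1% of windows) and TCAGGTT (the MEF3 element, in 3.3%) matched in none of the 4 windows. No motif searched overlapped another in the windows shown.

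The first comparison was between the lines among running animals, and its differences lay in the fast subunits. Transcripts of fast troponin I and fast troponin T were lower in HCR runners than in LCR runners, and those of the slow subunits passed no test. In bulk muscle, fewer fast fibres and less of these transcripts per fibre cannot be told apart. Tnni2, the fast inhibitory subunit, had 154, 102, 63.4, 128 and 112 CPM in HCR runners 1 to 5, against 344, 607, 702, 604 and 889 CPM in LCR runners 1 to 5. Every HCR runner lay below every LCR runner. Tnni2 fell by 2.51 on the log2 scale (SE 0.46, adjusted p = 0.006, edgeR quasi-likelihood test with Benjamini-Hochberg adjustment over all genes). Without the 2 libraries with conflicting titles Tnni2 fell by 2.34, with an adjusted p of 0.051.

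Tnnt3, the fast tropomyosin-binding subunit, had 321, 184, 184, 423 and 388 CPM in HCR runners, against 581, 1055, 1780, 985 and 1506 CPM in LCR runners. These groups did not overlap either, and the lowest LCR runner, number 1, was also the lowest in Tnni2. Tnnt3 fell by 1.98 on the log2 scale (SE 0.37, adjusted p = 0.00883, edgeR), and by 1.99 without the 2 libraries (adjusted p = 0.0327). With only the 10 running libraries in the fit, its adjusted p was 0.125.

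Tnnc2, the fast calcium-binding subunit, had 1421, 812, 1043, 1470 and 1473 CPM in HCR runners, against 1878, 1952, 3208, 2244 and 2646 CPM in LCR runners. The groups did not overlap, but the difference of -0.94 on the log2 scale did not pass (SE 0.25, adjusted p = 0.105, edgeR). It passed with DESeq2 (adjusted p = 0.0109), and with edgeR when HCR sedentary 6 was left out of the fit (adjusted p = 0.0115). In the other 25 of the 26 edgeR fits that left out 1 library each it did not pass. Nor did it with voom (adjusted p = 0.167), or with edgeR without the 2 libraries with conflicting titles (adjusted p = 0.215). With the replicate number as a block in edgeR its adjusted p was 0.0605. So 2 of the 6 troponin genes were called, both lower in HCR runners, where 0.278% of all genes tested were called lower and 0.636% in either direction. All 3 fast genes had groups without overlap, against 0.666% of all genes with HCR runners lower. Taking the line from the title in place of the genotype left 0 of the 6 called, with Tnni2 at -0.76 and Tnnt3 at -0.81 on the log2 scale.

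The slow subunits of the runners overlapped between the lines. Tnnt1, slow troponin T, averaged 10090 ± 1205 CPM in HCR runners and 9817 ± 501 CPM in LCR runners (log2 difference 0.05, SE 0.13, adjusted p = 0.96, edgeR). Tnni1, slow troponin I, averaged 2935 ± 199 and 2567 ± 209 CPM (0.19, SE 0.10, adjusted p = 0.617), and 5 of 5 HCR runners lay above the LCR mean. Tnnc1, slow and cardiac troponin C, averaged 2904 ± 255 and 2698 ± 234 CPM (0.12, SE 0.14, adjusted p = 0.886).

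**Figure D1:**
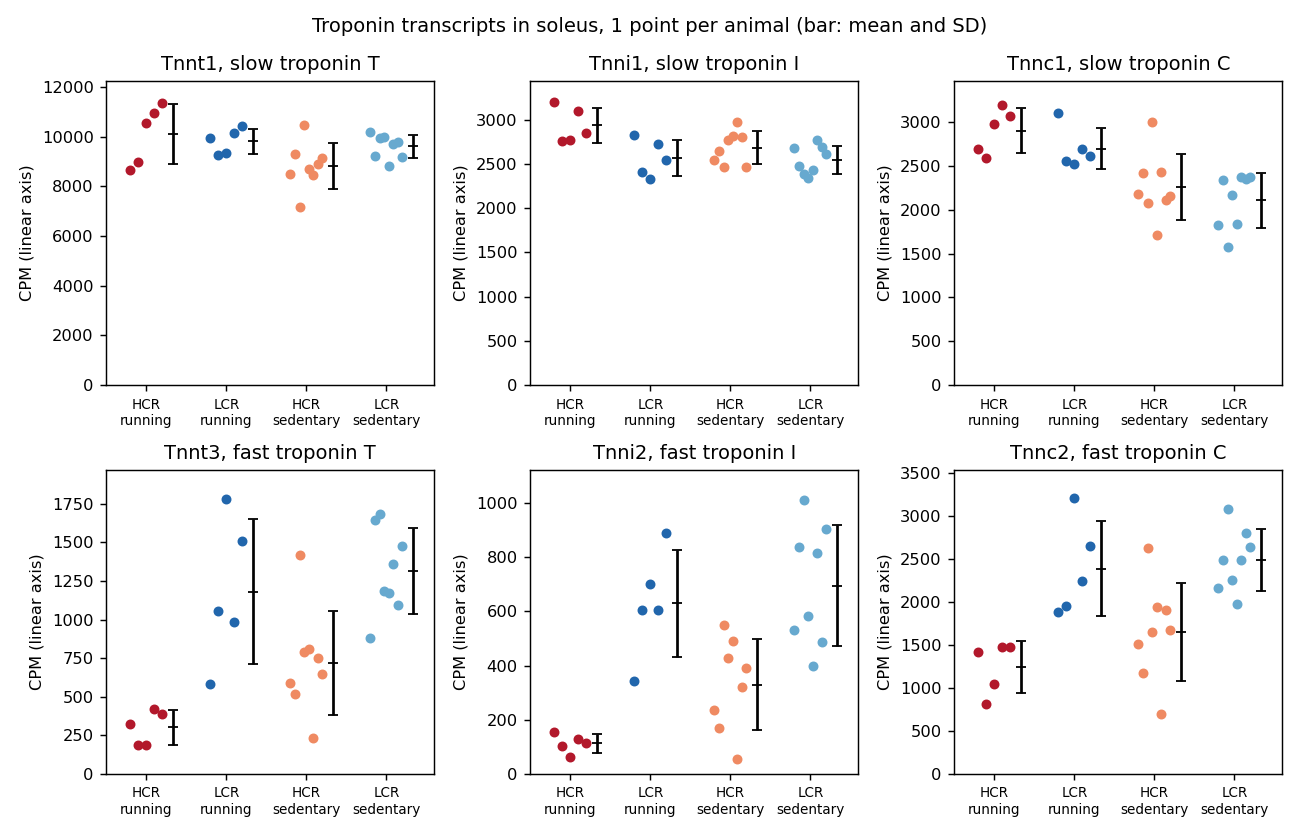
CPM (linear axis from 0) of the 6 troponin genes in each of the 26 animals by group, with bars for mean and SD; animals of a group are drawn in replicate order, which carries no meaning. In the lower row all 5 HCR runners lie below all 5 LCR runners, with Tnni2 at 63.4 to 154 CPM against 344 to 889 CPM, while the slow genes of the upper row overlap between the running lines.

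Among sedentary animals the fast subunits were also lower on average in HCR, and none passed the edgeR test. Tnni2 ran from 54.3 CPM through a median of 355 to 551 CPM in HCR sedentary rats, against 398, 699 and 1012 CPM (lowest, median, highest) in LCR sedentary rats. All 8 HCR rats lay below the LCR mean, but the groups overlapped. The log2 difference was -1.11 (SE 0.33, adjusted p = 0.0764, edgeR). Tnnt3 ran from 230 through 699.6 to 1416 CPM in HCR, against 880, 1275 and 1683 CPM in LCR, a log2 difference of -0.91 (SE 0.28, adjusted p = 0.0889). Tnnc2 ran from 693 through 1660.3 to 2620.5 CPM in HCR, against 1970, 2487 and 3072 CPM in LCR, a log2 difference of -0.64 (SE 0.20, adjusted p = 0.084). In both of these genes 7 of 8 HCR rats lay below the LCR mean.

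The 3 slow genes showed small differences in the sedentary rats. Tnnt1 averaged 8824 ± 925 CPM in HCR and 9599 ± 474 CPM in LCR (log2 difference -0.15, SE 0.10, adjusted p = 0.524, edgeR). Tnni1 averaged 2684 ± 186 and 2547 ± 159 CPM (0.04, SE 0.08, adjusted p = 0.85), and Tnnc1 2261 ± 373 and 2106 ± 316 CPM (0.08, SE 0.11, adjusted p = 0.801). In all, 0 of the 6 genes were called with edgeR, where 2.72% of all genes were, and the 3 fast genes had an unadjusted p under 0.05. By p they ranked 393 to 448 among the 10064 genes tested. DESeq2 and voom with quality weights each called the 3 fast genes, with adjusted p-values from 0.0234 to 0.0391. The sedentary calls therefore depend on the tool. The shares of all genes that DESeq2 and voom called are not given, so their counts have no background share.

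Averaged over sedentary and running animals, all 3 fast genes were lower in HCR than in LCR. Tnni2 fell by 1.81 on the log2 scale (SE 0.28, adjusted p = 0.000327, edgeR), Tnnt3 by 1.45 (SE 0.23, adjusted p = 0.00046) and Tnnc2 by 0.79 (SE 0.16, adjusted p = 0.00384). Called lower in this comparison were 1.72% of all genes, and 3.75% in either direction. The 3 calls were kept without the 2 libraries with conflicting titles (adjusted p-values 0.00191, 0.00148 and 0.00874), and 0 were kept with the line of the title. Tnnt1, Tnni1 and Tnnc1 had log2 differences of -0.05, 0.12 and 0.10 with adjusted p-values of 0.851, 0.391 and 0.673.

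**Figure D2:**
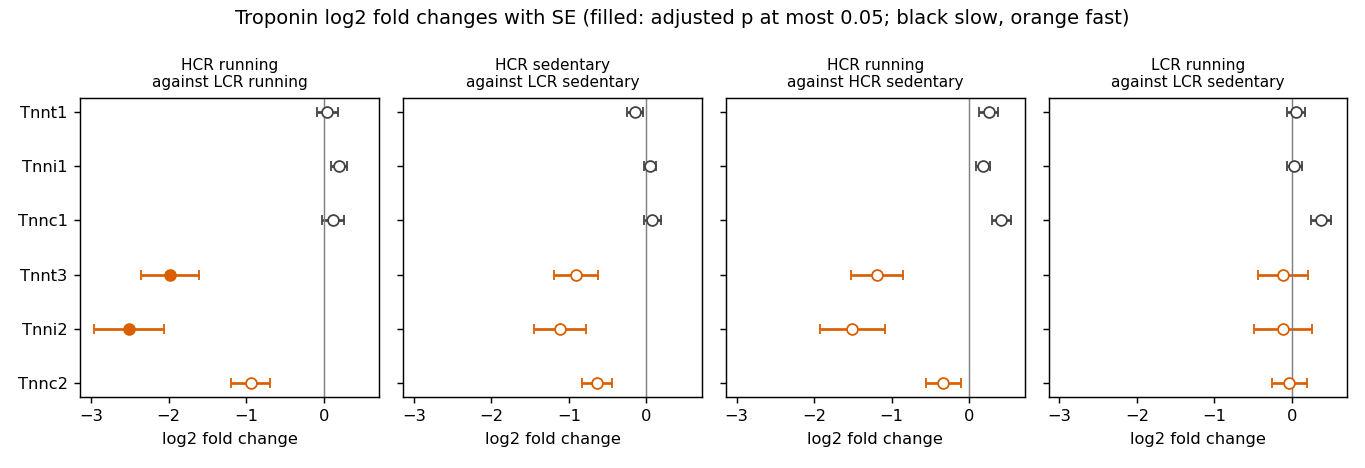
Log2 fold changes with SE from the edgeR fit of all 26 libraries, for the 6 troponin genes in 4 comparisons; filled points have an adjusted p of at most 0.05, slow genes are black and fast genes orange. The 2 filled points are Tnnt3 at -1.98 and Tnni2 at -2.51 in HCR running against LCR running.

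Running was compared with the sedentary state within each line. In LCR, Tnnc1 had 3100, 2552, 2528, 2698 and 2613 CPM in runners 1 to 5, against 1572, 2254 and 2377 CPM (lowest, median, highest) in sedentary rats. Every LCR runner lay above every sedentary LCR rat, a separation that 0.0994% of all genes showed in this direction. The log2 difference of 0.38 did not pass (SE 0.13, adjusted p = 0.706, edgeR). The other 5 genes had log2 differences between -0.11 and 0.05 in LCR. Called in this comparison were 0 of the 6 genes and 0% of all genes with edgeR, and 0 of the 6 with DESeq2 and with voom. Tnnc1 alone had an unadjusted edgeR p under 0.05, and ranked 71 by p among the 10064 genes tested.

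In HCR, Tnnc1 had 2688, 2591, 2975, 3192 and 3072 CPM in runners, against 1713, 2168 and 3000.3 CPM (lowest, median, highest) in sedentary rats, and the groups overlapped. The log2 difference was 0.41 (SE 0.13, adjusted p = 0.163, edgeR), and it passed when HCR sedentary 4, the highest sedentary rat in Tnnc1, was left out (0.52, adjusted p = 0.0204). In the other 25 of the 26 fits that left out 1 library each, the HCR difference did not pass. Averaged over the lines, Tnnc1 rose by 0.40 with running (SE 0.09, adjusted p = 0.0426, edgeR), where 0.378% of all genes were called and 0.258% called higher. This call was lost in 18 of the 26 fits that left out 1 library each, in which the difference lay between 0.37 and 0.45, and without the 2 libraries with conflicting titles (0.36, adjusted p = 0.084).

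The fast genes of HCR were lower in runners than in sedentary rats by values that did not pass with edgeR. The log2 differences were -1.51 in Tnni2 (SE 0.42, adjusted p = 0.145), -1.19 in Tnnt3 (SE 0.34, adjusted p = 0.161) and -0.34 in Tnnc2 (SE 0.23, adjusted p = 0.577). All 5 HCR runners lay below the sedentary HCR mean in each of these genes, and the groups overlapped. Tnnt1 and Tnni1 had log2 differences of 0.25 (adjusted p = 0.374) and 0.18 (adjusted p = 0.422). With edgeR 0 of the 6 genes were called, against 0.0994% of all genes, and 4 had an unadjusted p under 0.05. Such p-values were common in this comparison: Tnnt1, at an unadjusted edgeR p of 0.0402, ranked 1078 by p among the 10064 genes tested. DESeq2 called Tnni2 (adjusted p = 0.0177) and Tnnt3 (adjusted p = 0.0292), and voom 0. The share of all genes that DESeq2 called is not given.

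The difference between the lines in their running difference was tested as an interaction. It was -1.39 for Tnni2 (SE 0.55, unadjusted p = 0.0192, adjusted p = 0.835, edgeR) and -1.07 for Tnnt3 (SE 0.46, unadjusted p = 0.0289, adjusted p = 0.835). Tnnc2, Tnnt1, Tnni1 and Tnnc1 had -0.30, 0.20, 0.15 and 0.04. None of the 6 genes passed with edgeR, DESeq2 or voom, and 0% of all genes did with edgeR.

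The balance of slow and fast forms was followed in each animal as the ratio of slow to fast counts of a subunit, in which library size cancels. Reads lie near transcript 3' ends, so counts were not divided by length, and a ratio is read between animals and not as a molar ratio. The ratios combine genes chosen with results known and are described without a test. For troponin I, the ratio was 20.7, 27.1, 43.7, 24.1 and 25.5 in HCR runners 1 to 5, against 8.22, 3.98, 3.32, 4.51 and 2.86 in LCR runners. The geometric means of 27.2 and 4.26 differed by 6.38-fold, or 5.31 pooled SDs on the log2 scale.

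For troponin T the ratio was 26.9, 48.9, 57.3, 25.9 and 29.2 in HCR runners, against 17.1, 8.77, 5.25, 10.3 and 6.91 in LCR runners. For troponin C it was 1.89, 3.19, 2.85, 2.17 and 2.09 in HCR runners, against 1.65, 1.31, 0.788, 1.20 and 0.988 in LCR runners. All 3 ratios were higher in every HCR runner than in every LCR runner, and the fold between the geometric means was 3.99 for troponin T and 2.08 for troponin C. Without the libraries with conflicting titles the geometric means for troponin I were 27.7 in HCR runners and 4.70 in LCR runners (n = 4 each), and the ranges of all 3 ratios stayed apart. With the line of the title, the log2 differences were 1.41 for troponin I, 1.17 for troponin T and 0.62 for troponin C, against 2.67, 2.00 and 1.05 by genotype.

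In sedentary rats the geometric mean ratio of troponin I was 9.81 in HCR and 3.83 in LCR, that of troponin T 13.6 and 7.46, and that of troponin C 1.45 and 0.847. The groups overlapped in all 3 ratios, with 6 of 8 HCR rats above every LCR rat in each. Fast troponin C made up a larger share of its subunit's counts than fast troponin I or T did. The fast share of troponin C was 29.7% ± 4.54 in HCR runners, 46.5% ± 6.92 in LCR runners, 41.4% ± 11.1 in HCR sedentary and 54.1% ± 5.05 in LCR sedentary rats. The share of troponin I was 3.63% ± 0.872, 19.6% ± 5.74, 10.8% ± 5.31 and 21.2% ± 5.63 in the same order of groups, and that of troponin T 2.87% ± 0.938, 10.7% ± 3.94, 7.60% ± 4.01 and 12.0% ± 2.43 (SD, n = 5, 5, 8 and 8). Counting error was smaller than these spreads: for example, the share of 2.24% of troponin I in HCR running 3 had a 95% Wilson interval of 1.83% to 2.74%, which covers counting error only.

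The slow form made up most of the troponin I and troponin T counts, so the sums of both forms mostly follow it by construction. Slow plus fast troponin I came to 3047 ± 229 CPM in HCR runners, 3197 ± 182 in LCR runners, 3014 ± 190 in HCR sedentary and 3242 ± 268 in LCR sedentary rats. For troponin T the sums were 10390 ± 1262, 10998.5 ± 632, 9542 ± 838 and 10911.5 ± 469 CPM in the same order of groups. For troponin C, where the fast form is abundant, the sums were 4147 ± 499, 5084 ± 454, 3906 ± 539 and 4589 ± 482 CPM.

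**Figure D3:**
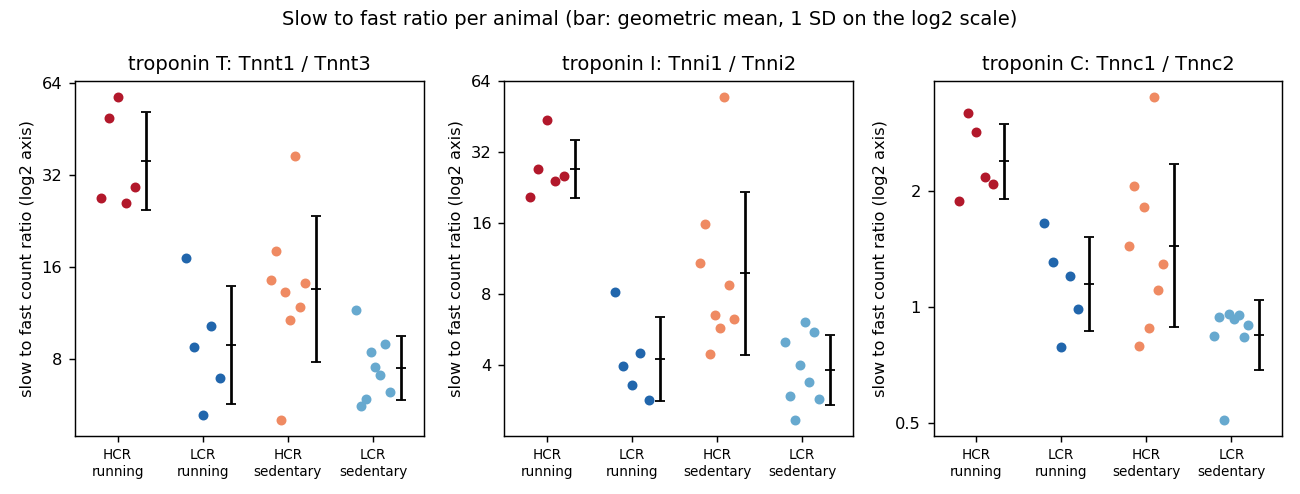
Ratio of slow to fast counts of each troponin subunit in each of the 26 animals by group (log2 axis), with bars for the geometric mean and 1 SD on the log2 scale. In all 3 panels the HCR runners lie above the LCR runners without overlap, and in HCR sedentary rats the ratios spread most widely, from 4.47 to 54.8 for troponin I.

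The fast forms did not differ by the same fold. In running animals the line difference was -2.51 in Tnni2, -1.98 in Tnnt3 and -0.94 in Tnnc2 on the log2 scale. The count ratio of Tnni2 to Tnnc2 had a geometric mean of 0.0891 in HCR runners (0.0611 to 0.126), against 0.257 in LCR runners (0.183 to 0.336), without overlap. In sedentary rats it was 0.177 (0.0787 to 0.258) in HCR and 0.270 (0.174 to 0.344) in LCR. The ratio of Tnnt3 to Tnnc2 was 0.233 (0.177 to 0.288) in HCR runners and 0.471 (0.310 to 0.569) in LCR runners, again without overlap, and 0.419 and 0.522 in HCR and LCR sedentary rats. The ratio of Tnni2 to Tnnt3 overlapped between the running lines, at 0.382 (0.289 to 0.556) in HCR and 0.546 (0.395 to 0.613) in LCR.

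Animals of 1 group differed more in the fast than in the slow genes. The biological coefficient of variation of the edgeR fit was 0.458 for Tnni2, 0.387 for Tnnt3 and 0.271 for Tnnc2, against 0.144 for Tnnt1, 0.116 for Tnni1 and 0.159 for Tnnc1. The median over all genes tested was 0.139, and 2.03%, 2.87% and 7.69% of genes had a larger value than Tnni2, Tnnt3 and Tnnc2. Within HCR sedentary rats Tnni2 covered a 10.1-fold range. Rat 6 of that group was the lowest of its group in all 3 fast genes (54.3 CPM Tnni2, 230 CPM Tnnt3, 693 CPM Tnnc2), and rat 3 the highest (551, 1416 and 2620.5 CPM).

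Ordered by mean level, LCR sedentary was highest and HCR running lowest in each fast gene, with LCR running and then HCR sedentary between them. Neighbours in this order overlapped in every gene, with gaps of 0.222 to 1.67 pooled SDs. For the slow genes HCR running was highest in all 3, and neighbours overlapped with gaps of 0.117 to 1.33 pooled SDs.

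The fast genes varied together between animals after each was centred on its group mean. Over 26 libraries Tnnt3 and Tnnc2 had a Pearson r of 0.91 and a Spearman rho of 0.85, Tnnt3 and Tnni2 0.86 and 0.80, and Tnni2 and Tnnc2 0.85 and 0.745. The adjusted permutation p-values of r over the 15 pairs of members were 7.5e-05, 7.5e-05 and 0.00015, from 100000 permutations within groups, and those of rho were 7.5e-05, 7.5e-05 and 0.0005. An unadjusted 1e-05 is the smallest p these permutations can give. Without the 2 libraries farthest from the median of the first gene, r was 0.83, 0.76 and 0.72. With the 2 libraries of conflicting titles left out instead, r was 0.91, 0.87 and 0.85.

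No other pair passed. The slow genes had r of 0.39 (Tnnt1 and Tnnc1), 0.34 (Tnni1 and Tnnc1) and 0.17 (Tnnt1 and Tnni1) with adjusted permutation p-values of 0.228, 0.276 and 0.589. Pairs of a slow and a fast gene had r between -0.35 and -0.02. With the TMM factors of the fit in place of library size alone, the slow pairs had r of 0.64, 0.60 and 0.70 with adjusted permutation p-values of 0.00828, 0.0102 and 0.0009, so the slow correlations depend on the scaling. The genes of a pair share each library and its scaling.

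**Figure D4:**
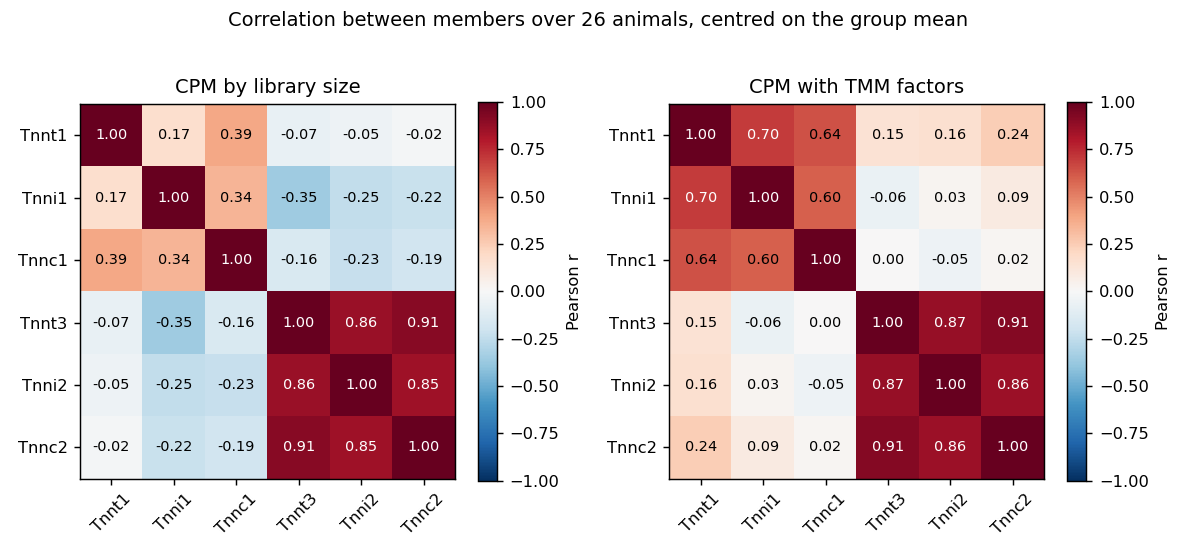
Pearson r between the 6 troponin genes over 26 animals on log2 CPM centred on the group mean, with CPM by library size (left) and with TMM factors (right). The fast block of the lower right lies between 0.85 and 0.91 in both panels, and the slow block of the upper left is 0.17 to 0.39 on the left and 0.60 to 0.70 on the right.

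Other genes were ranked by the likeness of their group-centred pattern to each member, among 9602 genes, as a description over 26 libraries. The ranking used log2 CPM by library size and was not repeated with TMM factors, on which the slow correlations depend. Nearest to Tnni2 were Myh2, the myosin heavy chain of fast oxidative fibres (r = 0.87), Tpm1, a fast-type tropomyosin (0.83), and Atp2a1, the calcium pump of the fast sarcoplasmic reticulum (0.69). Nearest to Tnnt3 were Tpm1 (0.90), Myh2 (0.75) and Spen (0.72), and nearest to Tnnc2 were Tpm1 (0.84), Myh2 (0.77) and Atp2a1 (0.73). Nearest to Tnnt1 were Tpm2, a tropomyosin (0.88), Tcap, a Z-disc protein (0.83), and Myl3, a slow myosin light chain (0.82). Nearest to Tnni1 were Mppe1 (0.76), Fhl1 (0.65) and Nicn1 (0.64), and nearest to Tnnc1 were Ppara (0.75), Hddc3 (0.63) and Eif2d (0.59).

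**Figure D5:**
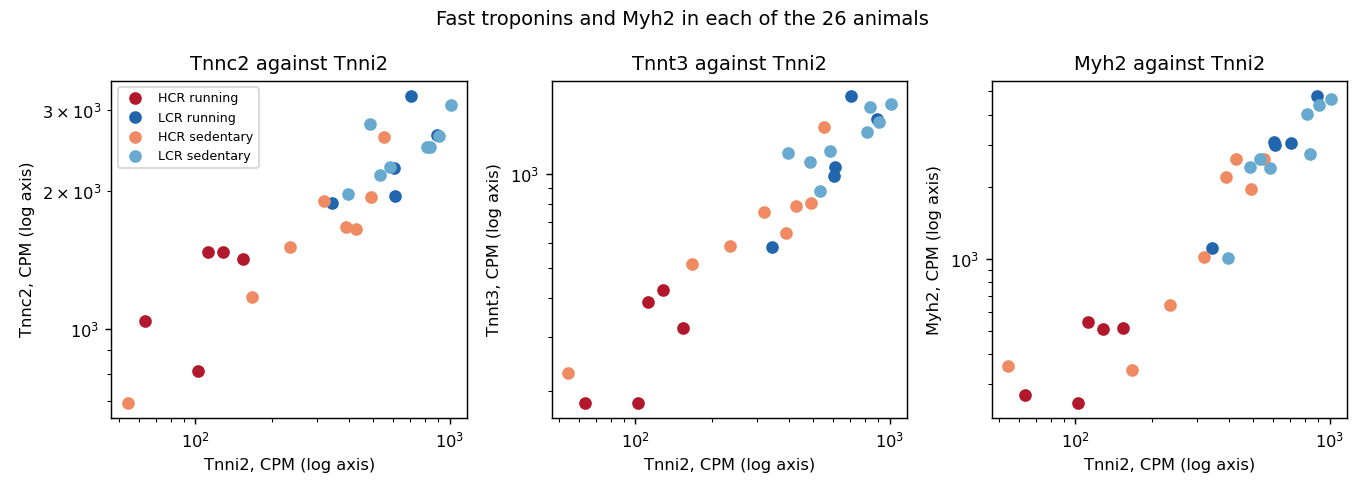
CPM of Tnnc2, Tnnt3 and Myh2 against CPM of Tnni2 in each of the 26 animals (log axes), coloured by group. The 5 HCR runners (Tnni2 at most 154 CPM), HCR sedentary 6 (54.3 CPM) and HCR sedentary 2 (167 CPM) lie at the lower left. LCR animals (344 to 1012 CPM) lie further to the upper right and overlap other HCR sedentary rats, which reach 551 CPM.

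Of the genes that work beside troponin, 2 of a list of 12 fast fibre genes were called between the running lines, both lower in HCR. Of all genes tested 0.278% were called lower, and 0.666% had groups without overlap with HCR runners lower. The list was chosen with earlier results of these data known, so its counts and median are a description and no test. Myh2 had 515, 251, 272, 511 and 545 CPM in HCR runners, against 1110, 2979, 3054, 3077 and 4770 CPM in LCR runners, without overlap (log2 difference -2.86, SE 0.59, adjusted p = 0.0206, edgeR). Tpm1 had 843, 544, 472, 849 and 950.03 CPM in HCR runners, against 1155, 1335, 2031, 1613 and 2095 CPM in LCR runners, without overlap (log2 difference -1.17, SE 0.28, adjusted p = 0.0484). The median of the 12 genes was -0.39, against 0.00 over all genes tested, and 11 of 12 lay below 0. Summed, they came to 4391 to 7219 CPM in HCR runners and 7995 to 13566 CPM in LCR runners. Within these sums Myh2 averaged 419 CPM in HCR runners and 2998 CPM in LCR runners. Myh1 and Myh4, of faster fibres, had log2 differences of -0.73 (adjusted p = 0.853) and 0.96 (adjusted p = 0.798).

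In sedentary animals 0 of the 12 fast fibre genes were called with edgeR, with Myh2 at -1.08 (adjusted p = 0.206) and Tpm1 at -0.51 (adjusted p = 0.223), and a list median of -0.27; 3 had an unadjusted p under 0.05. Averaged over activity, Myh2 fell by 1.97 (SE 0.36, adjusted p = 0.00197) and Tpm1 by 0.84 (SE 0.17, adjusted p = 0.00487). In HCR running against HCR sedentary rats Myh2 had -1.76 (SE 0.53, adjusted p = 0.174) and Tpm1 -0.54 (SE 0.25, adjusted p = 0.375). Of 10 slow fibre genes, 0 were called with edgeR in any of the 7 comparisons, in which 0% to 3.75% of all genes were called. In a list this short, 0 calls lies near that share. Of these 10 genes, 0 to 2 had an unadjusted p under 0.05. Between the running lines Myh7 had 0.06 (adjusted p = 0.949) and Tpm3, the slow tropomyosin, 0.02 (adjusted p = 0.987). Tpm2, shared by both fibre kinds, had 0.09 (adjusted p = 0.912).

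Of 12 other thin filament genes, Tpm1, which stands on both lists, was called as above. Lmod3, which builds actin filaments, was lower in HCR than in LCR sedentary rats by a log2 difference of -0.39 (SE 0.08, adjusted p = 0.00538, edgeR) and higher in HCR runners than in HCR sedentary rats by 0.56 (SE 0.10, adjusted p = 0.00306). Of 16 regulators of fibre type, 0 were called with edgeR in any of the 7 comparisons, in which 0% to 3.75% of all genes were called. Here too 0 calls lies near that share, and 0 to 4 regulators had an unadjusted p under 0.05. The cardiac troponins were low in every group. Tnnt2, cardiac troponin T, averaged 63.9 ± 43.1, 85.3 ± 62.5, 43.8 ± 19.6 and 57.4 ± 34.5 CPM in HCR running, LCR running, HCR sedentary and LCR sedentary rats. Tnni3, cardiac troponin I, averaged 11.4 ± 5.66, 7.11 ± 3.86, 5.25 ± 1.98 and 3.76 ± 2.17 CPM, with a running difference averaged over the lines of 1.03 (SE 0.25, adjusted p = 0.055, edgeR). Between the running lines the log2 differences were -0.44 for Tnnt2 (adjusted p = 0.887) and 0.67 for Tnni3 (adjusted p = 0.636).

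Markers of other cells and of neighbouring fast muscle were read beside the fast troponins. Between the running lines 0 of the tested markers of macrophages (4 of 5 listed), adipocytes (3 of 5), fibroblasts (5), endothelium (4), Schwann cells (4) and regenerating fibres (5) were called with edgeR, where 0.636% of all genes were, and 1 marker had an unadjusted p under 0.05. Their summed levels overlapped, for example 271 to 648 CPM in HCR and 344 to 552 CPM in LCR for fibroblasts, 47.3 to 142 CPM in HCR and 91.8 to 118 CPM in LCR for Schwann cells, and 369 to 1600 CPM in HCR and 777 to 1744 CPM in LCR for regeneration. Actn3 and Pvalb, which are abundant in fast glycolytic muscle and were chosen after their values were seen, had log2 differences between the running lines of -0.09 (adjusted p = 0.986) and -0.85 (adjusted p = 0.83). They do not stand for all genes of such muscle. Myh4 averaged 87.3 CPM in HCR runners and 44.9 CPM in LCR runners, with 307 CPM in HCR running 2 and 10.2 to 55.1 CPM in the other HCR runners. It was the 1 fast fibre gene of 12 above 0, and 11 lay below. In HCR running against HCR sedentary rats 3 of 3 tested adipocyte markers had an unadjusted edgeR p under 0.05, with a list median of -0.97 on the log2 scale. In HCR against LCR sedentary rats 2 of 3 did, with a list median of 0.72. None of these adipocyte markers was called, and unadjusted p-values under 0.05 were common among all genes in the first of these comparisons. Over the 7 comparisons, at most 3 tested markers of any of these cell lists had an unadjusted p under 0.05 in 1 comparison. The part of dissection or of these cells in the troponin differences was not tested.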

How the data were processed

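Transcripts of 26 rat soleus samples were counted in 3' end libraries (QuantSeq 3' FWD v2, primed at the poly(A) tail, single-end), per the labels' protocols. What the authors deposited is 1 table of raw read counts for 34034 genes, whole numbers without normalisation. In the submitters' processing notes stand cutadapt, UMI-tools, STAR, featureCounts, FastQC and MultiQC, and the assembly mRatBN7.2 (rn7). Versions, the collapse of molecular identifiers and the use of strand are not given in the sources used here, so counting error may exceed that of the counts, and overlapping or antisense genes are uncertain. Tnnt1, Tnni1, Tnnc1, Tnnt3, Tnni2 and Tnnc2 were matched by symbol. The members and gene lists were chosen with earlier results of these data known.

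Groups followed the genotype and treatment labels. All libraries entered 1 fit of 4 groups with edgeR 4.0.16 in R 4.3.3 (quasi-likelihood F test, robust, TMM factors of 0.898 to 1.15, filterByExpr by group), with 7 contrasts and Benjamini-Hochberg adjustment over 10064 genes at 0.05. Each SE is the absolute log2 fold change over the root of the F statistic. CPM values use library size alone, log2 CPM a prior count of 2, and ratios a pseudocount of 0.5 on the log2 scale. The p-values measure the spread between samples. The share of all genes with an unadjusted p under 0.05 was not counted, so counts of list genes under it have no background share. Within groups, every pair of libraries differed by more than sampling noise; pairs across groups were not compared. Genes named beside the members are called genes of 86 list entries (84 genes, all in the table; Mylpf was matched through its RefSeq synonym Myl11), Myh7, Myh2, Myh1, Myh4, Tpm1 to Tpm3, Tnnt2 and Tnni3 whatever their p, and the 3 most alike genes of each member whose average log2 CPM was 2 or more. On simulated counts with 200 changed genes, 72% of 2-fold and 26% of 1.5-fold changes were recovered between the running lines, and 89% and 57% between the sedentary lines. False calls made up 5.77% and 2.01% of the calls. The changed genes were drawn at random from the genes tested. The fast troponins varied more between animals than most genes, so these shares need not hold for them. Alternatives were DESeq2 1.42.0, limma 3.58.1 voom, other scalings and filters, the title's line, and leaving out libraries. Shares of all genes called are those of the main edgeR fit, and those of the alternatives are not given. No sequences of the proteins were used here. Actn3 and Pvalb are named beside the genes of that selection, after their values were seen. Of the list genes that were called, 1 is not reported here.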

Additional observations from a re-analysis of the deposited data

Results flagged for a closer look

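The troponin C ratio of slow to fast counts in LCR sedentary rat 3 stood apart from the other 7 animals of its group. Its log2 ratio was -0.97, the nearest other rat had -0.25, and this gap was 0.788 of the group's whole range. The rat had the lowest Tnnc1 of its group, 1572 CPM, and the highest Tnnc2, 3072 CPM. It was the 1 value of this kind among 36 groups of values checked, and chance alone gives about 1 in 20. Its part in the group's values was not tested beyond leaving it out.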

How the results depend on the processing

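The call of 2 troponin genes between the running lines became 1 with only the 2 groups in the fit, 1 without the 2 libraries with conflicting titles, and 0 with the line of the title. The call of 0 between the sedentary lines became 3 with DESeq2, 3 with voom and 1 with the replicate number as a block (Tnnc2, adjusted p = 0.0299). The 3 calls averaged over activity became 0 with the line of the title. The 0 calls of HCR running against HCR sedentary became 2 with DESeq2, and the 1 call of running averaged over the lines became 0 without the 2 libraries. With the line of the title the log2 ratio differences between the running lines were 1.17 (troponin T), 1.41 (troponin I) and 0.62 (troponin C), and that of troponin I in LCR running against LCR sedentary 0.78. With TMM factors 6 pairs of members correlated past the threshold. The causes were not tested.

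These directions turned. With the line of the title Tnnt1 had -0.011 between the running lines, and the interaction was -0.066 for Tnnc1, 0.10 for Tnnt3, 0.35 for Tnni2 and 0.13 for Tnnc2. Without the 2 libraries Tnnt1 had -0.0059 and Tnni1 -0.00087 in LCR running against LCR sedentary. With TMM factors r was 0.15 for Tnnt1 and Tnnt3, 0.16 for Tnnt1 and Tnni2, 0.24 for Tnnt1 and Tnnc2, 0.027 for Tnni1 and Tnni2, 0.086 for Tnni1 and Tnnc2, 0.0016 for Tnnc1 and Tnnt3, and 0.022 for Tnnc1 and Tnnc2.

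Leaving out 1 library at a time gave 2 to 3 calls between the running lines, and 3 averaged over activity in each of the 26 fits. It gave 0 to 1 between the sedentary lines (1 without LCR sedentary 5, Tnni2; 1 without HCR sedentary 3, Tnnt3), 0 to 1 for HCR running against HCR sedentary, and 0 to 1 for running averaged. Log2 differences ranged from -0.034 to 0.13 for Tnnt1 between the running lines and from -0.031 to 0.12 for Tnnc1 between the sedentary lines. In LCR running against LCR sedentary they ranged from -0.0055 to 0.086 for Tnnt1, -0.00061 to 0.065 for Tnni1, -0.30 to 0.067 for Tnnt3, -0.32 to 0.052 for Tnni2, -0.16 to 0.055 for Tnnc2 and -0.086 to 0.29 for the troponin I ratio. The interaction of Tnnc1 ranged from -0.018 to 0.15.

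Of 33 same-numbered pairs of libraries from different groups, 3 had a correlation of deviations over 0.1, and the range was -0.22 to 0.26. Pairs with different numbers were not compared, so these values cannot decide whether the numbers pair the samples. With the replicate block the running-line calls of Tnni2 (adjusted p = 0.043) and Tnnt3 (adjusted p = 0.028) were kept. At 1.10 to 2.52 megacounts per library the smallest fast count was 93, in Tnni2 of HCR running 3, where the counting error at the mean count of the group (CV 7.69%) was below the spread between its animals (CV 30.0%).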
